A study of Mus musculus with 14 samples.

Results

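The protein components of the small nuclear ribonucleoproteins (snRNPs) of the spliceosome were followed in cultured mouse epidermal cells. Members were taken by gene symbol: every symbol beginning with Snrp, Sf3a or Sf3b plus a digit, Lsm plus a digit, Prpf plus a digit, or U2af, apart from 2 pseudogene symbols ending in -ps. This gave 51 of the 55228 symbols in the count table, of which 50 had enough counts to be tested, among 11757 genes tested in all. The remaining member, U2af1l4, a relative of the small U2AF subunit, had 1, 2 and 2 counts in distal libraries 1, 2 and 5 and none in the other libraries. By annotation 50 of the 51 were protein-coding, and Snrpert was a processed pseudogene copy of Snrpe.

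The distal cells (6 libraries) came from a region of tail epidermis that the study calls a distal memory region, and the control cells (8 libraries) from a non-memory region. Both carried Lrig1CreER and Rosa-TdTomato, so the label marks cells, and their descendants, in which the Lrig1 promoter had driven the inducible Cre; both are listed with no treatment and at the time called 8w pw1. In both, labelled cells positive for the surface antigen Sca1 were sorted and grown for 1 week in keratinocyte medium. Smart-seq2 cDNA and Nextera XT libraries were then made from small pools. Separate animals or cultures are not named in the labels. The p-values therefore reflect how much these libraries vary, and that variation may be technical.

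Total counts were 2137934 to 4513518 in distal libraries and 4515646 to 7458872 in control libraries, with no overlap. The 12 keratinocyte markers summed to 20550 to 26790 counts per 1000000 (CPM) in distal and 15170 to 19720 CPM in control libraries, so the keratinocyte label held in both. The sum was higher in every distal library, but of the 11 markers tested 5 were higher and 5 lower in distal cells (median log2 fold change -0.31), and among the lower ones were Trp63 (-0.92) and Dsc3 (-1.11); their part in the results was not tested. The 10 fibroblast markers summed to 17.4 to 112 CPM in distal and 12.1 to 257 CPM in control libraries, with Lum at 0. The 8 melanocyte markers gave 12.6 to 40.8 CPM in distal and 15.4 to 47.2 CPM in control libraries, with Dct, Sox10 and Kit at 0. The 10 immune markers gave at most 3.61 CPM in distal and 2.95 CPM in control libraries, with Cd3e, Cd3g, Cd207, Itgam and Tyrobp at 0, and the 8 endothelial markers gave 4.54 to 10.5 CPM in distal and 1.88 to 9.78 CPM in control libraries, with Cdh5, Emcn and Vwf at 0. CPM here use library totals scaled by the trimmed mean of M values (TMM), and in bulk samples fewer cells of a type and less RNA per cell cannot be told apart.

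The spliceosome removes introns from pre-mRNA and is built mainly from U1, U2, U4, U5 and U6 snRNPs, each a small RNA with its proteins. A ring of Sm proteins sits on every one of these RNAs except U6, which carries a ring of LSm proteins. U1 recognises the start of an intron, U2 with the SF3A and SF3B complexes and U2AF recognises the branch point and the end of the intron, and the U4/U6.U5 tri-snRNP then joins before the catalytic steps. Keratinocytes, like other cells, need these proteins, and most of the genes are expressed in every tissue.

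Promoter sequences are shown for the Sm gene with the largest rise (Snrpf), another that rose (Snrpd2), the most abundant member (Snrpe) and the branch point protein gene Sf3b1, since these carry the results on single genes. RefSeq promoter windows of GRCm38.p6, running from 250 bases before to 50 after an annotated start, were at hand for 40 of the 51 members (51 windows). The windows lie at chr10:93589609-93589908, minus strand (Snrpf), chr7:19149588-19149887, plus strand (Snrpd2), chr1:133610231-133610530, minus strand (Snrpe) and chr1:55027429-55027728, minus strand (Sf3b1), and each is printed in the direction of its gene. Capitals mark matches, on either strand, to the letters CCGGAAG (the ETS motif), AAGATGGC (YY1), CCAAT and TATAAA (the CCAAT and TATA boxes), and the NRF1 motif, which is GCGC, any base, then TGCGC.
Snrpf: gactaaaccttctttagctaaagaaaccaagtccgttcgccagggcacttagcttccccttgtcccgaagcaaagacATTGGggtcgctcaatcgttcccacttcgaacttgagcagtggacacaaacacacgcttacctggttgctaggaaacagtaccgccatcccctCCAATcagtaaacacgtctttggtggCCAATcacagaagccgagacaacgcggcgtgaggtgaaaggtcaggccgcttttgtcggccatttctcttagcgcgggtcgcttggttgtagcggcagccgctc
Snrpd2: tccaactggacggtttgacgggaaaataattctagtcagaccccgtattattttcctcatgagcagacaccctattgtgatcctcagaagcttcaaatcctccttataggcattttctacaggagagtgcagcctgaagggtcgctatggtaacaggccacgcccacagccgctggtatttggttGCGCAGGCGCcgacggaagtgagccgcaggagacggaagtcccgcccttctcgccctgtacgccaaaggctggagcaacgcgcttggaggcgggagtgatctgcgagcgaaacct
Snrpe: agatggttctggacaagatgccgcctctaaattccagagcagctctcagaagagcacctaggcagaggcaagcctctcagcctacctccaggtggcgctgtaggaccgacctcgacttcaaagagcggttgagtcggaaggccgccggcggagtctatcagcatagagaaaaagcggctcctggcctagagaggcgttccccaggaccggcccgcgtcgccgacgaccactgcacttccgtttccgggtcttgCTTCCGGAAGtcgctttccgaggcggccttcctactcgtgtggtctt
Sf3b1: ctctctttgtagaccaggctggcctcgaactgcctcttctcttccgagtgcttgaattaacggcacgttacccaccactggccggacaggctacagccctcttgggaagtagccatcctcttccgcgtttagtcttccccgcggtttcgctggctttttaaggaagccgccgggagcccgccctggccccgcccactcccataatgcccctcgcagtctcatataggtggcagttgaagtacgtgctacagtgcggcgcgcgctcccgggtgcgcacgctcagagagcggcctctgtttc
Snrpf held 3 matches to CCAAT, Snrpd2 held 1 to the NRF1 letters, Snrpe held a pair of overlapping ETS matches on opposite strands, and Sf3b1 held none. Over the member windows, 31.4% held the ETS letters, against 8.86% of all 32851 windows, and 23.5% held the NRF1 letters, against 4.6%. The TATAAA letters were in 5.88% of member windows and 13.6% of all windows, CCAAT in 43.1% and 37.4%, and the YY1 letters in 7.84% and 2.75%. The median window held 23 CpG dinucleotides in members and 7 in all genes. All windows came from 27025 genes, whether or not they were tested here, and were not matched to the members by CpG count. Among windows of members that rose, fell and were not called in the comparison below, the ETS letters were in 22.2%, 26.7% and 47.1%, and the NRF1 letters in 38.9%, 20.0% and 11.8%. These groups held only 18, 15 and 17 windows, with the ETS letters in 4, 4 and 8 and the NRF1 letters in 7, 3 and 2. Some genes gave more than 1 window, and the differences were not tested. A match describes the letters and is not evidence of binding.

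Of the 50 tested members, 19 rose and 14 fell in distal cells relative to control cells, and 17 were not called (edgeR quasi-likelihood F test, Benjamini-Hochberg adjusted p under 0.05 over all tested genes). Over all tested genes the same test called 48.3% of genes, 24.3% higher and 24.1% lower, against 66.0% of the members; the members were also more highly expressed, with a median average log2 CPM of 6.01 against 4.64 over all tested genes, and whether that bears on the share called was not tested. Without distal library 1, or without distal library 2, 9 members fell. The median log2 fold change (distal minus control) was -0.11 over the members and -0.16 over all tested genes. The distal and control libraries did not overlap at all for 12 members that were higher and 4 that were lower in distal cells; over all tested genes this held for 12.7% and 5.62%, or 18.3% in either direction. Together the members took 0.494 to 0.654% of the counts in distal libraries and 0.565 to 0.765% in control libraries.

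Direction followed base composition. Annotated transcripts of the members that rose had a median GC content of 53.1% (41.3 to 59.4%), those of the members that fell 43.2% (39.7 to 47.5%) and those not called 47.7%. Across the 50 members the log2 fold change and the GC content had a Pearson correlation of 0.69, and across all 11654 tested genes with a GC value it was 0.70; genes share the libraries and are not independent. In the fifth of tested genes richest in GC, 7 of 8 members rose and none fell, where 67.1% of all genes rose. In the fifth poorest in GC, 1 of 13 members rose and 8 fell, where 0.343% of all genes rose and 53.3% fell. For each library, the departures of its log2 values from the gene means over both regions were fitted on GC content. The slope, per 10 percentage points, was 0.23 to 0.91 in distal libraries and -0.60 to -0.33 in control libraries. Its sign compares a library with the other libraries and does not say whether GC-rich genes had low or high values within it. The regions thus differed in GC slope as well as in depth, so the GC slope, the depth and the region cannot be told apart.

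**Figure D1:**
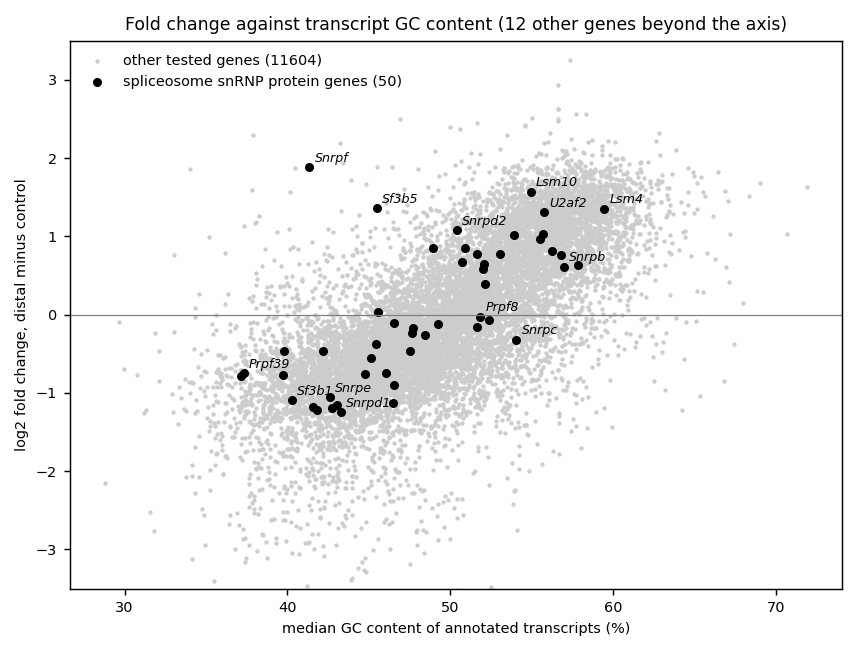
Each point is a tested gene, with the median GC content of its annotated transcripts (%) on the x axis and its log2 fold change, distal minus control, on the y axis; the 50 members are black and the other 11604 genes grey. The members follow the slope of the other genes, and Snrpf and Sf3b5 stand above it at GC contents of 41.3% and 45.5%.

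The comparison was therefore repeated with the smooth trend on transcript GC content and length removed from every library. Then 10 members were higher, 5 were lower and 35 were not called, where 30.0% of members and 18.9% of all genes were called (10.4% of genes higher and 8.56% lower). The same call stood in both fits for 13 members; none was called in opposite directions, 20 were called only with the trend left in and 2 only with it removed. Of the 33 called with the trend left in, 6 changed sign on its removal: Snrpb, Sf3b4 and Sf3a2 became negative, and Snrpn, Snrpb2 and Prpf38a positive, none of them called then. The 2 called only with the trend removed were Sf3b3, a large scaffold protein of SF3B (log2 fold change 0.80, adjusted p = 0.0168, lost without distal library 1 or 6), and Snrpc, the C protein of U1 (log2 fold change -0.91, adjusted p = 0.0296, lost on leaving out any of 5 libraries). With the trend taken on the coding sequence alone, 11 members were higher and 7 lower of 49 with a value, where 36.7% of members and 28.3% of all genes were called. In all 3 fits 9 members were called in the same direction: Snrpf, Snrpd2, Snrpg, U2af2, Lsm1, Prpf6, Prpf31 and Prpf19 higher, and Snrpd1 lower in distal cells. The share of all genes called alike in 2 or in all 3 fits was not counted. With the transcript GC trend removed and 1 library left out, U2af2 passed in 5, Prpf19 in 6, Snrpd1 in 8 and Snrpg in 9 of 14 fits. Snrpf, Snrpd2, Lsm1, Prpf6 and Prpf31 passed in all 14.

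**Figure D2:**
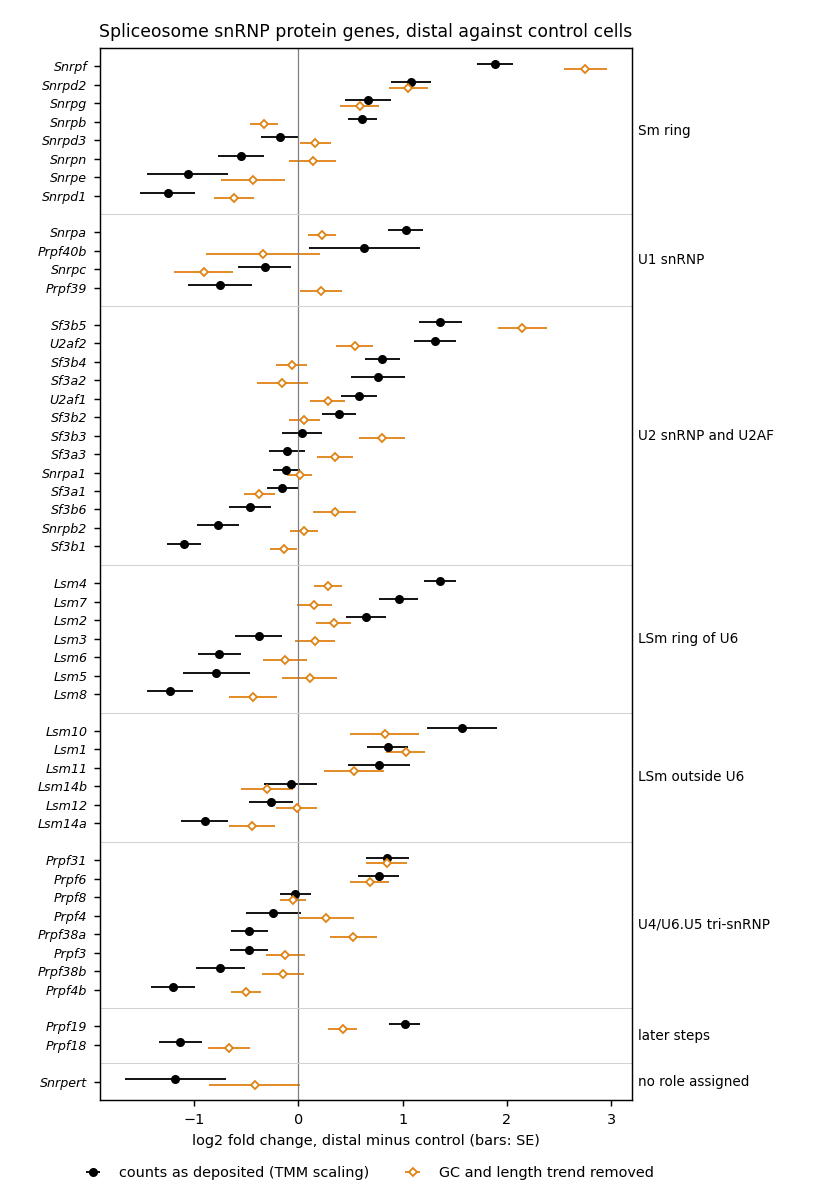
Log2 fold changes, distal minus control, of 49 of the 50 tested members with their SE, grouped by role, from the counts as deposited (black circles) and with the GC and length trend removed (open orange diamonds). Values moved towards 0 for many members, Snrpf and Sf3b5 moved away from it, and 35 of all 50 kept their sign.

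Of the 8 Sm ring genes, 4 were higher, 3 lower and 1 not called in distal cells, where 24.3% of all tested genes were higher and 24.1% lower. Removing the GC trend left 3 higher and 1 lower, where 10.4% and 8.56% of all genes were. Snrpf, which encodes the SmF protein, had 59.7, 55.2, 59.9, 44.1, 58.7 and 69.0 CPM in distal libraries, against a lowest value of 12.8, a median of 14.2 and a highest of 22.3 CPM in control libraries. Every distal library was above every control library. Its log2 fold change was 1.88 ± 0.17 (SE; adjusted p = 1.6e-06), the largest among the members, and 2.75 with the GC trend removed (adjusted p = 9.97e-07). Leaving out any 1 library gave 1.85 to 2.08. Snrpf has 861 nt of exons, of which 735 nt overlap genes on the opposite strand, Ccdc38 with 1 to 58 counts and 4933408J17Rik with 0 to 9 counts per library, and a near-identical copy, Gm13092, had 77 counts over all libraries; whether counting used strand is not given in these sources.

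Snrpd2 (SmD2) had 79.0, 95.9, 56.5, 45.2, 59.2 and 61.8 CPM in distal libraries, against 22.0 to 40.8 CPM (median 31.1) in control libraries. The groups did not overlap, and its log2 fold change was 1.08 ± 0.19 (SE; adjusted p = 0.000198), or 1.06 with the GC trend removed (adjusted p = 0.000722). With the coding GC trend removed, Snrpd2 had a smaller log2 fold change of 0.50 (adjusted p = 0.0305 in edgeR). Snrpg (SmG) had 60.1 to 126 CPM (median 79.5) in distal and 25.9 to 76.2 CPM (median 56.6) in control libraries. Those groups overlapped; its log2 fold change was 0.67 ± 0.22 (SE; adjusted p = 0.0167), and 0.59 with the trend removed (adjusted p = 0.0352, lost on leaving out any of 5 libraries). Snrpb, which encodes the SmB proteins and is rich in GC (57.0%), had 333 to 431 CPM in distal and 183 to 297 CPM in control libraries, with no overlap. The log2 fold change of Snrpb was 0.61 ± 0.14 (SE; adjusted p = 0.00136), but -0.33 with the trend removed (adjusted p = 0.107).

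Snrpd1 (SmD1) had 167, 186, 388, 413, 207 and 113 CPM in distal libraries, against 399 to 806 CPM (median 573) in control libraries. Distal library 4 reached into the control range and the other distal libraries lay below it. Snrpd1 had a log2 fold change of -1.25 ± 0.26 (SE; adjusted p = 0.000874), and -0.61 with the trend removed (adjusted p = 0.0321), a call lost on leaving out any of 6 libraries. Snrpe (SmE), described for its abundance after its values were seen, had 501, 295, 1336, 1634, 412 and 222 CPM in distal libraries, against 854 to 2155 CPM (median 1663) in control libraries. Distal libraries 3 and 4, which are the deepest and have the lowest GC slopes among distal libraries, lay within the control range, and the other 4 lay below every control library. Its log2 fold change was -1.06 ± 0.39 (SE; adjusted p = 0.0309), a call lost without control library 3 or without distal library 1, 2, 5 or 6 (largest adjusted p = 0.0665), and it was -0.44 with the GC trend removed (adjusted p = 0.353). Snrpe alone made up 5.23 to 25.0% of the members' counts in distal libraries and 13.8 to 25.4% in control libraries; its pseudogene Snrpert, near-identical over the whole coding sequence of Snrpe, had 0.802 to 9.36 CPM in distal and 3.37 to 14.4 CPM in control libraries and was not called (log2 fold change -1.18, adjusted p = 0.0518).

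Snrpn, an imprinted gene that encodes SmN, a relative of SmB, had 24.1 to 36.0 CPM (median 29.4) in distal and 19.0 to 61.4 CPM (median 41.2) in control libraries. Control library 5, at 19.0 CPM, lay below every distal library, and the other control libraries lay above them. Its log2 fold change of -0.55 ± 0.22 (SE; adjusted p = 0.0456) was lost on leaving out 13 of the 14 libraries in turn. It was 0.14 with the transcript GC trend removed (adjusted p = 0.720) and -1.20 with the coding GC trend removed (adjusted p = 0.000701); the GC content of Snrpn is 45.1% over its transcripts and 55.8% over its coding sequence. Snrpd3 (SmD3) had 169 to 226 CPM in distal and 135 to 303 CPM in control libraries and was not called (adjusted p = 0.414).

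On a per-length scale, the order of the Sm genes depended on the length used. Per kb of the median annotated transcript, CPM in distal cells ran in the order Snrpe (1333), Snrpd1 (425), Snrpb (316), Snrpd3 (289), Snrpg (152), Snrpf (67.1), Snrpd2 (49.9) and Snrpn (14.8). In control cells the order was Snrpe (2777), Snrpd1 (1011), Snrpd3 (327), Snrpb (207), Snrpg (95.2), Snrpd2 (23.5), Snrpn (21.7) and Snrpf (18.1). Per kb of the union of annotated exons, Snrpf (67.1) was above Snrpd3 (55.9) and Snrpg (54.1) in distal cells and below them in control cells (18.1, against 63.2 and 34.0), whereas per kb of transcript it was below both in both regions. With either length Snrpe was the highest and Snrpn the lowest of the 8 in distal cells. Neighbours in these orders were not tested against each other. Of the 861 nt of Snrpf exons, 735 nt overlap genes on the opposite strand, and the bearing of this on its place was not tested.

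**Figure D3:**
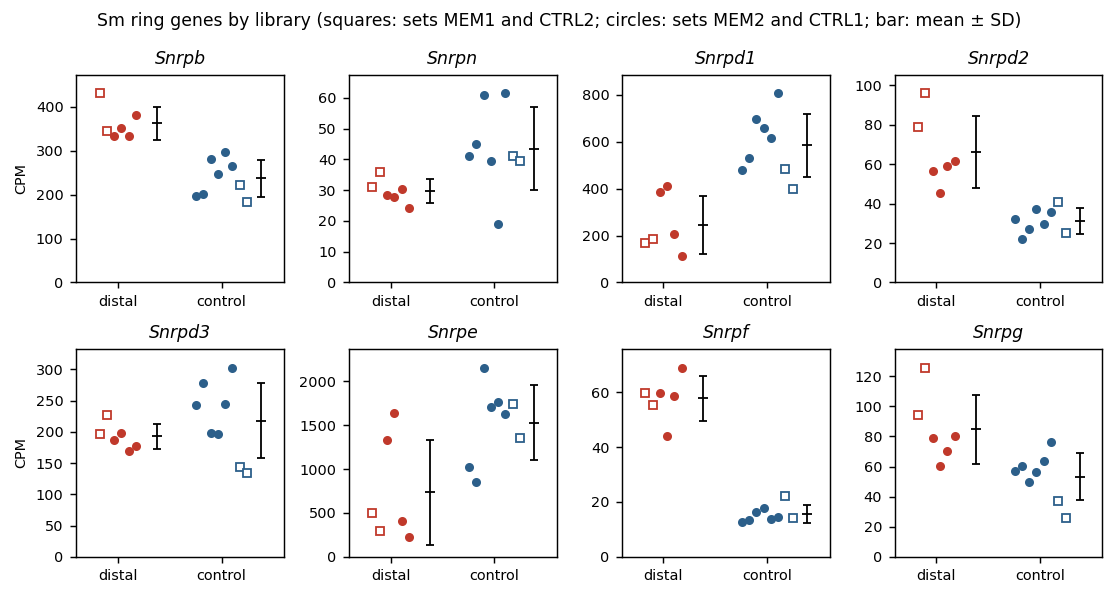
CPM of the 8 Sm ring genes in each distal (red) and control (blue) library, each panel with its own axis from 0; squares and circles tell apart the 2 sets of libraries in each region, and bars show the mean ± SD. Snrpf, Snrpd2 and Snrpb separate the regions completely, Snrpe and Snrpd1 are low in 4 distal libraries and higher in distal libraries 3 and 4, and Snrpd3 overlaps.

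Among the U1 genes described here, Snrpa rose and Snrpc, Prpf39 and Prpf40b were not called with the GC trend left in. Snrpc had a log2 fold change of -0.91 with the transcript GC trend removed (adjusted p = 0.0296 in edgeR). That call passed in 9 of 14 fits that left out 1 library. With the coding GC trend removed, Snrpc was at -1.24 and was called (adjusted p = 0.00332 in edgeR). Snrpa, which encodes the A protein of U1, which binds a stem loop of the RNA, had 58.6 to 102 CPM (median 96.5) in distal and 31.5 to 55.9 CPM (median 44.1) in control libraries. The groups did not overlap, with a log2 fold change of 1.03 ± 0.17 (SE; adjusted p = 8.32e-05), which was 0.23 with the GC trend removed (adjusted p = 0.260). Prpf39, a homolog of a yeast U1 protein, had 82.1, 113, 375, 145, 189 and 89.5 CPM in distal libraries, against 171 to 427 CPM (median 257) in control libraries. Distal library 3 stood apart from the other distal libraries and inside the control range, and the gene was not called (log2 fold change -0.75 ± 0.31 SE, adjusted p = 0.0516); without that library it was -1.06 and passed the threshold, and with the GC trend removed it was 0.22. The exons of Prpf39 overlap Fkbp3 on the opposite strand, which had 305 to 2719 counts per library. Prpf40b, at 0.699 to 5.45 CPM in distal and 0.740 to 4.52 CPM in control libraries, was not called (log2 fold change 0.63 ± 0.53 SE, adjusted p = 0.334).

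Among the U2 and U2AF genes, 5 of 13 tested rose, 2 fell and 6 were not called, where 24.3% of all tested genes were higher and 24.1% lower. U2af2, the large U2AF subunit that binds the polypyrimidine tract, had 47.5, 43.6, 34.2, 56.2, 37.3 and 57.8 CPM in distal libraries, against 14.1 to 26.4 CPM (median 16.3) in control libraries. The groups did not overlap, with a log2 fold change of 1.31 ± 0.20 (SE; adjusted p = 4.67e-05). With the GC trend removed it was 0.54 (adjusted p = 0.0376), past the threshold in 5 of the 14 fits that left out 1 library. Its partner U2af1, the small subunit that contacts the AG at the intron end, had 51.9 to 69.8 CPM (median 60.6) in distal and 27.6 to 55.9 CPM (median 40.7) in control libraries. Those groups overlapped slightly, with a log2 fold change of 0.58 ± 0.17 (SE; adjusted p = 0.00884) and 0.28 with the trend removed (adjusted p = 0.260).

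Sf3b1, the large SF3B protein that clasps the branch point helix, had 283, 277, 391, 426, 372 and 241 CPM in distal libraries, against 580 to 896 CPM (median 649) in control libraries. Every distal library was below every control library, and its log2 fold change was -1.09 ± 0.16 (SE; adjusted p = 4.04e-05). Its transcripts have a GC content of 40.3%, and with the trend removed the log2 fold change was -0.14 ± 0.13 (SE; adjusted p = 0.502). Sf3b5, a small SF3B subunit, had 127, 107, 79.5, 70.1, 88.1 and 76.2 CPM in distal libraries, against 20.5 to 51.8 CPM (median 32.7) in control libraries. The groups did not overlap, with a log2 fold change of 1.36 ± 0.21 (SE; adjusted p = 4.67e-05). Which GC value is used mattered for Sf3b5: it was 2.15 with the trend on transcript GC (45.5%) removed (adjusted p = 1.8e-05) and 0.40 with that on coding GC (61.6%) removed (adjusted p = 0.0795).

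The other called genes of U2 were Sf3b4 (log2 fold change 0.81, adjusted p = 0.000697) and Sf3a2 (0.76, adjusted p = 0.0190), which encode subunits of SF3B and SF3A, and Snrpb2, which encodes the B'' protein of U2 and was lower (-0.77, adjusted p = 0.00437). With the GC trend removed these were -0.06, -0.16 and 0.06 in log2 fold change and none was called. Snrpa1 (the A' protein of U2), Sf3a1, Sf3a3, Sf3b2, Sf3b3 and Sf3b6 were not called with the trend left in, at log2 fold changes of -0.46 (Sf3b6) to 0.39 (Sf3b2).

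The LSm ring of U6, built from Lsm2 to Lsm8, had 3 of 7 genes higher, 2 lower and 2 not called. Over all tested genes 24.3% were higher and 24.1% lower. Lsm4 had 191, 194, 153, 146, 195 and 155 CPM in distal libraries, against 45.5 to 85.1 CPM (median 68.7) in control libraries. The groups were far apart, with a log2 fold change of 1.36 ± 0.16 (SE; adjusted p = 4.11e-06). By its transcripts it is the most GC-rich member (59.4%), and with that trend removed its log2 fold change was 0.28 (adjusted p = 0.153). With the coding GC trend removed the log2 fold change of Lsm4 was 0.40 and was called (adjusted p = 0.0368 in edgeR). Lsm7 had 32.4 to 59.2 CPM (median 44.2) in distal and 16.6 to 28.2 CPM (median 22.4) in control libraries, with no overlap (log2 fold change 0.96, adjusted p = 0.000402; 0.15 with the trend removed). Lsm8, the subunit that sets the nuclear ring apart, had 87.4 to 134 CPM (median 114) in distal and 125 to 386 CPM (median 279) in control libraries. Control library 8 alone reached down into the distal range, and the log2 fold change was -1.22 ± 0.22 (SE; adjusted p = 0.000236), or -0.43 with the trend removed (adjusted p = 0.206). Lsm2 was higher (0.65, adjusted p = 0.00974) and Lsm6 lower (-0.75, adjusted p = 0.00563), while Lsm3 and Lsm5 were not called. With the transcript GC trend removed, none of the 7 was called, and their log2 fold changes ran from -0.43 to 0.34. With the coding GC trend removed, 2 were higher (Lsm2 and Lsm4) and 2 lower (Lsm6 and Lsm8), where 15.5% and 12.8% of all genes were.

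Of the 6 LSm genes that work outside U6, 3 rose, 1 fell and 2 were not called, where 24.3% of all tested genes were higher and 24.1% lower. Lsm1 takes the place of Lsm8 in the cytoplasmic ring that promotes mRNA decay. It had 69.9, 50.2, 70.9, 37.9, 73.3 and 52.2 CPM in distal libraries, against 19.2 to 42.7 CPM (median 32.0) in control libraries. Distal library 4 lay within the control range and the others above it, with a log2 fold change of 0.86 ± 0.20 (SE; adjusted p = 0.00188) and 1.03 with the trend removed (adjusted p = 0.00108, past the threshold on leaving out any library). Lsm10, a part of the U7 snRNP that processes histone pre-mRNA, had 12.6 to 20.96 CPM (median 16.9) in distal and 1.11 to 8.61 CPM (median 5.86) in control libraries. The groups did not overlap, and the log2 fold change was 1.57 ± 0.34 (SE; adjusted p = 0.00103), but with the trend removed it was 0.83 and missed the threshold (adjusted p = 0.0875). With the coding GC trend removed, Lsm10 had a log2 fold change of 1.12 and was called (adjusted p = 0.0127 in edgeR). Its U7 partner Lsm11 was also higher (0.78, adjusted p = 0.0378), a call lost without control library 2, 3 or 5 or distal library 6. Lsm11 was not called with the transcript GC trend removed (0.53, adjusted p = 0.212 in edgeR). With the coding GC trend removed it was -0.04 (adjusted p = 0.936 in edgeR). Lsm14a, a P-body protein, had 47.3 to 75.4 CPM (median 57.8) in distal and 54.8 to 151 CPM (median 114) in control libraries, overlapping (log2 fold change -0.90, adjusted p = 0.00358; -0.45 with the trend removed). With the coding GC trend removed, Lsm14a had a log2 fold change of -0.62 and was called (adjusted p = 0.045 in edgeR). Its paralog Lsm14b, and Lsm12, were not called.

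Among the 8 tri-snRNP genes, 2 rose, 4 fell and 2 were not called, where 24.3% of all tested genes were higher and 24.1% lower. Prpf31, which binds U4, had 45.8, 42.2, 39.9, 30.4, 30.6 and 43.3 CPM in distal libraries, against 12.2 to 30.0 CPM (median 21.6) in control libraries. The groups just failed to meet, with a log2 fold change of 0.85 ± 0.21 (SE; adjusted p = 0.00250) that was also 0.85 with the GC trend removed (adjusted p = 0.00515). With the coding GC trend removed it was 0.55 (adjusted p = 0.0377 in edgeR). Prpf6, which bridges U5 and U4/U6, had 26.0 to 44.6 CPM (median 31.2) in distal and 14.4 to 23.5 CPM (median 19.8) in control libraries, with no overlap (log2 fold change 0.77, adjusted p = 0.00363; 0.69 with the trend removed, adjusted p = 0.0150). Prpf31 overlaps 984 nt of Gm15927 on the opposite strand, which had at most 8 counts in a library.

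Prpf4b, a kinase that acts on tri-snRNP proteins, had 38.1, 69.4, 101, 94.3, 65.1 and 44.5 CPM in distal libraries, against 122 to 193 CPM (median 159) in control libraries. Every distal library was below every control library, with a log2 fold change of -1.20 ± 0.21 (SE; adjusted p = 0.000196) and -0.50 with the trend removed (adjusted p = 0.0232, lost without distal library 1, 5 or 6), or -0.24 with the coding GC trend removed (adjusted p = 0.201). Prpf38b (-0.75, adjusted p = 0.0133), Prpf38a (-0.47, adjusted p = 0.0364) and Prpf3 (-0.47, adjusted p = 0.0399) were lower too. None of the 3 was called with the GC trend removed, at -0.15 for Prpf38b, 0.53 for Prpf38a, whose sign thus turned, and -0.12 for Prpf3. Those 3 calls were lost on leaving out single libraries: Prpf38b passed the threshold in 12 of 14 fits that left out 1 library, failing without distal library 1 or 2, Prpf38a in 4 and Prpf3 in 3. Prpf8, the central U5 protein at the catalytic core, had 186 to 292 CPM (median 239) in distal and 187 to 319 CPM (median 256) in control libraries. The ranges lay almost on top of each other, with a log2 fold change of -0.03 ± 0.15 (SE; adjusted p = 0.885), whose sign turned to 0.14 under upper-quartile scaling. Prpf4 was not called (adjusted p = 0.464).

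Both genes of later steps were called, where 48.3% of all tested genes were. Prpf19, the ubiquitin ligase at the centre of the complex that joins at activation, had 107, 95.6, 82.0, 101, 74.4 and 76.6 CPM in distal libraries, against 33.7 to 52.1 CPM (median 45.2) in control libraries. The groups did not overlap, with a log2 fold change of 1.02 ± 0.15 (SE; adjusted p = 2.59e-05) and 0.43 with the trend removed (adjusted p = 0.0373, past the threshold in 6 of the 14 fits that left out 1 library). Prpf18, which acts at the second catalytic step, had 14.9 to 23.1 CPM (median 19.1) in distal and 25.3 to 55.8 CPM (median 39.0) in control libraries, with no overlap. Its log2 fold change was -1.13 ± 0.21 (SE; adjusted p = 0.000254) and -0.66 with the trend removed (adjusted p = 0.0276, past the threshold in 9 of 14 such fits). With the coding GC trend removed it was -0.46 and not called (adjusted p = 0.119 in edgeR).

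**Figure D4:**
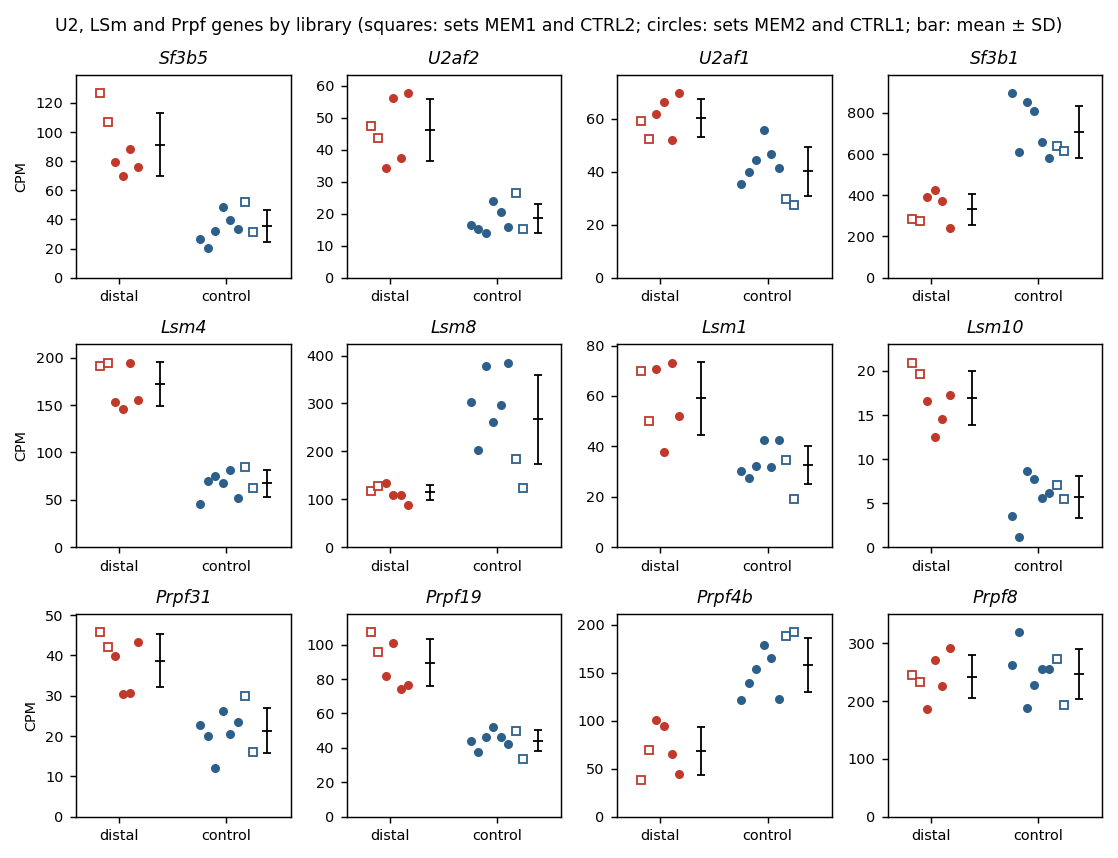
CPM of 12 U2, LSm and Prpf genes in each distal (red) and control (blue) library, each panel with its own axis from 0; squares and circles tell apart the 2 sets of libraries in each region, and bars show the mean ± SD. Lsm4, Lsm10, U2af2, Sf3b5, Prpf31 and Prpf19 lie above the control libraries in every distal library, Sf3b1 and Prpf4b below them, and Prpf8 overlaps.

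The members varied among libraries of the same region as well. The sample descriptions place the libraries in 4 sets, CTRL1 (6) and CTRL2 (2) in the control region and MEM1 (2) and MEM2 (4) in the distal region, so no set holds both regions. No member passed the threshold between the sets of a region in edgeR. The smallest adjusted p was 0.598 in distal and 0.429 in control cells, and over all genes 0% were called. At an unadjusted p under 0.05 there were 5 of 50 members and 921 of 11757 genes in distal cells. In control cells there were 9 of 50 members and 969 of 11757 genes. The widest gap between distal sets was in Snrpe, at 901 CPM in MEM2 and 398 CPM in MEM1 (log2 difference 1.18 ± 0.60 SE). In control cells Lsm8 averaged 155 CPM in CTRL2 and 304 CPM in CTRL1 (log2 difference -0.98 ± 0.26 SE), and Snrpg 31.6 CPM in CTRL2 and 60.6 CPM in CTRL1 (log2 difference -0.94 ± 0.25 SE). With the counts of each set summed, 2 distal and 2 control sums were compared, and 17 members were higher and 5 lower. Over all tested genes 30.5% were called there, 18.8% higher and 11.7% lower.

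**Figure D5:**
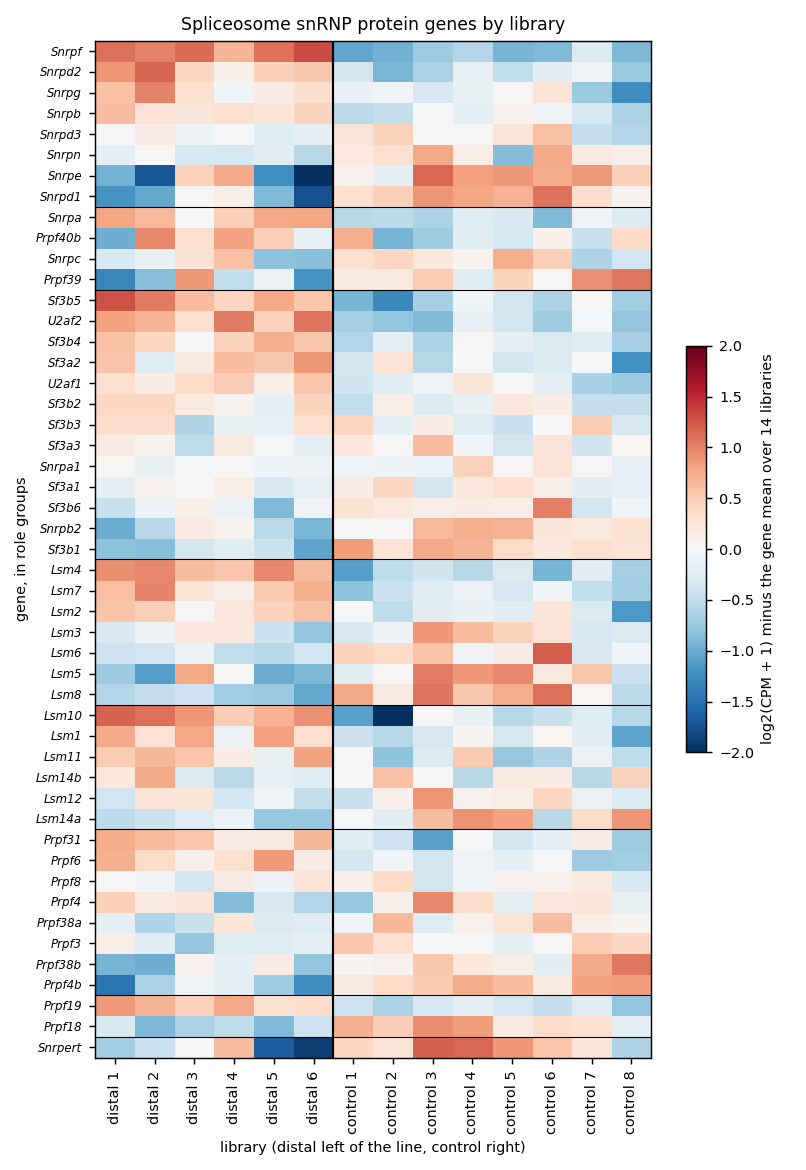
Heat map of 49 of the 50 tested members (down the page, in role groups and by falling fold change within each) in the 6 distal libraries, left of the line, and 8 control libraries, right of it; colour gives log2(CPM + 1) minus the gene's mean over the 14 libraries. Within each larger role group, genes at the top are mostly red in distal libraries and genes at the bottom mostly blue; Snrpe and Snrpd1 are pale or red in distal libraries 3 and 4 and blue in the other 4 distal libraries.

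Near-identical copies elsewhere in the annotation (at least 95% identity over at least 100 nt of coding sequence) were found for 17 members, so their counts are uncertain where reads could be split. Among these, 9 were higher and 4 lower, and among the 33 tested members without such copies 10 were higher and 10 lower. Over all tested genes 24.3% were higher and 24.1% lower. Exons of 15 members overlap another gene.

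Of 37 snRNP proteins that the symbol rule leaves out, 11 were higher and 10 lower in distal cells, where 24.3% and 24.1% of all tested genes were. With the GC trend removed the counts were 5 higher and 6 lower, where 10.4% and 8.56% of all genes were, and the median log2 fold changes of the list were -0.18 and 0.06 in the 2 fits. Those with the smallest p were Puf60, a helper of U2AF (log2 fold change 1.19, adjusted p = 9.34e-06), Cherp, a U2-associated protein (1.07, adjusted p = 0.000196), and the U5 protein gene Snrnp40 (0.84, adjusted p = 0.000104) among those that rose. Among those that fell they were Zrsr2, which recognises the end of minor introns (-1.19, adjusted p = 5.41e-06), Luc7l3 (-1.39, adjusted p = 6.22e-06) and Rbm25 (-1.21, adjusted p = 7.93e-05), both associated with U1. With the GC trend removed, Snrnp40 (0.54), Zrsr2 (-0.88), Luc7l3 (-0.56) and Rbm25 (-0.56) were still called, and Puf60 (0.29) and Cherp (0.07) were not.

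Of 46 proteins of the catalytic complexes and the exon junction complex, 13 were higher and 15 lower, where 24.3% and 24.1% of all tested genes were. Removing the GC trend left 6 higher and 6 lower, where 10.4% and 8.56% of all genes were. Ccdc12 averaged 39.7 ± 5.0 CPM in distal and 13.0 ± 4.5 CPM in control libraries (SD, n = 6 and n = 8; log2 fold change 1.61, adjusted p = 2.71e-05 in edgeR), and Cwc27, a cyclophilin-type protein, averaged 11.9 ± 3.6 CPM in distal and 32.4 ± 9.0 CPM in control libraries (log2 fold change -1.44, adjusted p = 0.000129 in edgeR). Both were called with the trend removed (0.65 and -0.94), as was the exon junction protein gene Rnps1 (0.55). Ddx39b, an RNA helicase of U2 loading and export (0.94), Smu1 (-1.01) and the exon junction core gene Magoh (-1.21) were called with the trend left in and not with it removed.

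Of 27 tested genes for snRNP assembly, the SMN complex and its partners, 6 were higher and 10 lower, where 24.3% and 24.1% of all tested genes were. On removal of the GC trend 1 was higher and 3 lower, where 10.4% and 8.56% of all genes were. Zpr1, which binds SMN, averaged 69.6 ± 15.3 CPM in distal and 27.4 ± 3.9 CPM in control libraries (SD, n = 6 and n = 8; log2 fold change 1.34, adjusted p = 9.35e-06 in edgeR; 1.05 with the trend removed). Smn1, which loads the Sm ring onto the RNA, averaged 40.5 ± 10.7 CPM in distal and 77.5 ± 14.9 CPM in control libraries (SD, n = 6 and n = 8; log2 fold change -0.93, adjusted p = 0.000547 in edgeR; -0.90 with the trend removed). Wdr77, a part of the complex that methylates Sm proteins, was lower in both fits (-1.22 and -0.81). Gemin7 (1.42), Ruvbl2 (1.23) and Strap (-0.71) were called with the trend left in and not with it removed.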

How the data were processed

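Smart-seq2 cDNA and Nextera XT libraries were made from small pools of cultured cells, per the labels' protocols. The authors deposited raw counts per gene symbol. The submitters' processing notes name HISAT2, featureCounts and the mouse build mm10/GRCm38. Strand settings and the treatment of multiply matching reads are not given in the sources. All rows name a gene.

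Groups came from the sample labels (6 distal and 8 control libraries). The tests used edgeR 4.0.16 under R 4.3.3 (filterByExpr, TMM, two-sided robust quasi-likelihood F test, Benjamini-Hochberg adjusted p under 0.05 over all genes tested). Log2 fold changes are distal minus control; SE is their size over the root of the F statistic. Scaling moved the median log2 fold change of tested genes: TMM gave -0.16, DESeq2 1.42.0 size factors -0.18 and upper quartiles 0.004; no called member changed sign between these. For the trend removal, natural splines (4 degrees of freedom) of transcript GC content and log2 length, from the GENCODE annotation of GRCm38, were fitted to every library's departures from the gene means and entered as offsets; the same was done with the coding sequence, an alternative chosen after seeing the data. Promoter motifs were searched on both strands. Members with copies were found with blastn. The code was tested on simulated counts.

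The members, role groups and gene lists were chosen with earlier results of these data known. Named genes are, in each role group, the 3 with the smallest p, the 5 largest and 5 smallest log2 fold changes among called members with average log2 CPM of at least 3, and Snrpn, Sf3b1, U2af1, U2af2 and Prpf8; from each other list, the 3 with the smallest p in each direction. Other members are given by value or count, and 1 member is counted but not reported here by name. The table holds no molecular identifiers, so counting error understates a library's error. All 23 pairs of libraries within a set differed beyond sampling noise (chi-square over degrees of freedom at least 6.83), and libraries were kept separate.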

Additional observations from a re-analysis of the deposited data

Results flagged for a closer look

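Of 46 groups of libraries examined (each member named by the rule, in each region), 1 held a library far from the rest. Prpf39 had 375 CPM in distal library 3, against 82.1 to 189 CPM in the other 5 distal libraries, and the gap to the nearest of them was 0.637 of the whole range. Chance alone places about 1 in 20 groups past the limit used.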

How the results depend on the processing

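The count of members that rose (19) stayed within 1.5 times under other scalings, DESeq2, other filters, summed counts, thinning and leaving out any set, and was 18 to 20 on leaving out any library. The count that fell (14) was less stable: it was 9 to 14 on leaving out any library (9 without distal library 1 or 2), 5 with counts summed per set, 5 without set CTRL1 and 8 without set MEM1. Over all tested genes the share that fell was 24.1% in the main fit and 11.7% with counts summed per set. With the GC trend removed the counts were 10 higher and 5 lower. Leaving out 1 library as well, which was chosen after seeing the data, gave 6 to 12 higher (6 without distal library 1) and 1 to 5 lower (1 without distal library 5, 2 without distal library 1, 2 or 6, 3 without control library 3, otherwise 4 or 5). Summed counts with the trend removed gave 3 higher and 0 lower, and coding GC removal, also chosen after seeing the data, gave 11 and 7.

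The replicate block gave 16 higher and 16 lower, and with the GC trend removed 6 and 6. For the block, thinning, left-out libraries or sets, and summed counts with the trend removed, the share of all genes called was not counted. Whether the members differ from the whole table in those fits was not tested. Same-numbered libraries share only a number: their deviations correlated at -0.02 to 0.11 over 6 pairs, and only numbers 2 and 3 correlated best with their own number. Under the block Prpf39 passed the threshold (-0.70) and Snrpn did not (-0.51). Comparisons between sets of a region gave 0 members under every alternative run for them.

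Some values changed sign. Prpf39 was 0.22 with the GC trend removed, 0.16 with that and summed counts, 0.29 with that and the block, and 0.19 with coding GC. Snrpn was 0.14, 0.30 and 0.17 under those first 3, Sf3b1 was 0.035 with summed counts and the trend removed, and Strap 0.025 with the block and the trend removed. Prpf8, not called in any fit listed here, was 0.14 with upper-quartile scaling and with summed counts, 0.087 thinned, 0.082, 0.045 and 0.07 without sets CTRL1, CTRL2 and MEM1, 0.26 with coding GC, and -0.078 to 0.164 on leaving out a library. The cause was not tested. The effect of depth on single members was tested only by thinning every library to 2137934 counts, which gave 20 higher and 11 lower.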
